A study of Mus musculus with 6 samples.

Results

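Cholesterol and fatty acid synthesis was examined in mouse hepatoma tumors through 30 genes, all 30 of which were found by exact symbol among the 26167 genes listed. They comprise 17 enzymes of the sterol pathway, 6 regulators of SREBP, and 7 enzymes of fatty acid synthesis, and all 30 were among the 16513 genes that passed a filter of 10 or more reads in 3 or more tumors. The labels call the tumors Hep1-6, and the paper calls the cells Hepa1-6, a mouse hepatoma cell line that was injected under the skin of female C57BL/6J mice of 6 to 8 weeks on day 0. Sorafenib (Sora), a multikinase inhibitor, was given ip at 10 mg/kg on days 9, 11, 13, and 15 to the mice whose tumors are numbered 2, 3, and 4 in the labels. The control tumors, numbered 1, 3, and 4, carry the treatment label control, and each tumor gave 1 library. What the control mice were injected with and the day of collection are not given in the sources used here.

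Cells make cholesterol from acetyl-CoA through mevalonate, squalene, and lanosterol, and fatty acids from acetyl-CoA through malonyl-CoA. Both routes are switched on by SREBP transcription factors, which are held in the endoplasmic reticulum by Scap and the Insig proteins while sterols are plentiful and are cut and sent to the nucleus when sterols run low. Srebf2 encodes SREBP2, which acts mainly on sterol genes, and Srebf1 encodes SREBP1, which acts mainly on fatty acid genes, and the liver is a main site of both. Because whole tumors were sequenced, fewer cells of a type and less RNA per cell cannot be told apart.

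Of the 30 genes, 1 was called: Msmo1, which was up-regulated 1.39-fold in Sora-treated tumors (adjusted p = 0.0188 over all genes tested, edgeR's quasi-likelihood test). Over all genes tested, 3.29% were called in either direction and 1.94% were called up. None of the 30 genes was called down by edgeR (1.34% of all genes tested were) or DESeq2, and 0 had an unadjusted p under 0.05 with a lower level, against 8.69% of all genes tested. On the other side, 8 had an unadjusted p under 0.05 with a higher level in Sora-treated tumors, against 8.53% of all genes tested. In 10 of the 30 genes all 3 Sora-treated tumors lay above all 3 control tumors in CPM (counts relative to TMM-scaled library size), against 10.6% of all genes tested, and in none did all lie below (11.6% of all genes tested). On the deposited FPKM, which are scaled by total count, this held for 7 of the 30 (10.6% of all genes tested), and 1 lay below (11.2%). The groups of Pmvk, Scap, Elovl6, and Scd1 overlapped on that scale, whereas those of Lss (above) and Ebp (below) did not. The fitted changes were small, from -0.16 to 0.48 on the log2 scale, with a median of 0.11 against 0.00 (-0.000369) over all genes tested, and it was 0.07 without control tumor 4. DESeq2, the tool of the study, called 2 of the 30 genes up by adjusted p alone, Msmo1 and Elovl6, and none down. The paper also required an absolute log2 fold change above 1, which was not applied here. Neither gene reached it (0.48 and 0.43 in DESeq2). DESeq2 called 7.71% of all genes with an adjusted p in either direction, 4% up and 3.71% down. The counts of Sora-treated tumor 4 were recovered from its FPKM, and with that tumor left out DESeq2 again called Msmo1 and Elovl6, against 2.99% of all genes in either direction, 1.65% up and 1.35% down. EdgeR called 0 of the 30 genes with that tumor left out, when it called 0.0306% of all genes in either direction, 0.0245% up and 0.00613% down.

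Levels were compared between genes in FPKM, which divide counts by gene length. In control tumors Scd2, a stearoyl-CoA desaturase that makes monounsaturated fatty acids, had the highest level, with 240.3 ± 15.1 FPKM (SD, n = 3), above the range of every other member. Me1, the cytosolic malic enzyme that supplies NADPH, followed with 56.6 ± 4.99 FPKM, and Scd1, a second desaturase, with 55.0 ± 5.03 FPKM. Fdps and Sqle came next, both at 46.9 FPKM (SD 4.62 and 1.30). Me1 and Scd1 overlapped between them, as did Scd1 with Fdps and Fdps with Sqle. Srebf2 had 33.8 ± 2.40 FPKM and Srebf1 28.7 ± 2.02 FPKM, so the transcripts of both factors were present. The ratio of Srebf2 to Srebf1 was 1.18 ± 0.109 in the controls and 1.28 ± 0.139 under Sora (SD, n = 3), and the groups overlapped. The lowest members in FPKM were Tm7sf2 (3.43 ± 0.440 FPKM), Fdft1 (3.15 ± 0.122 FPKM), and Hsd17b7 (2.83 ± 0.562 FPKM), whose control values overlapped. In CPM, which do not divide by length, Fdft1 had 32.74 ± 0.742 and Tm7sf2 5.06 ± 0.780 in control tumors. The place of Fdft1 thus depends on the gene length used. The member with the fewest reads, Tm7sf2, still had at least 144 reads in each tumor. Scd1 and Scd2 belong to one gene family, and any reads shared within it were not examined.

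**Figure D1:**
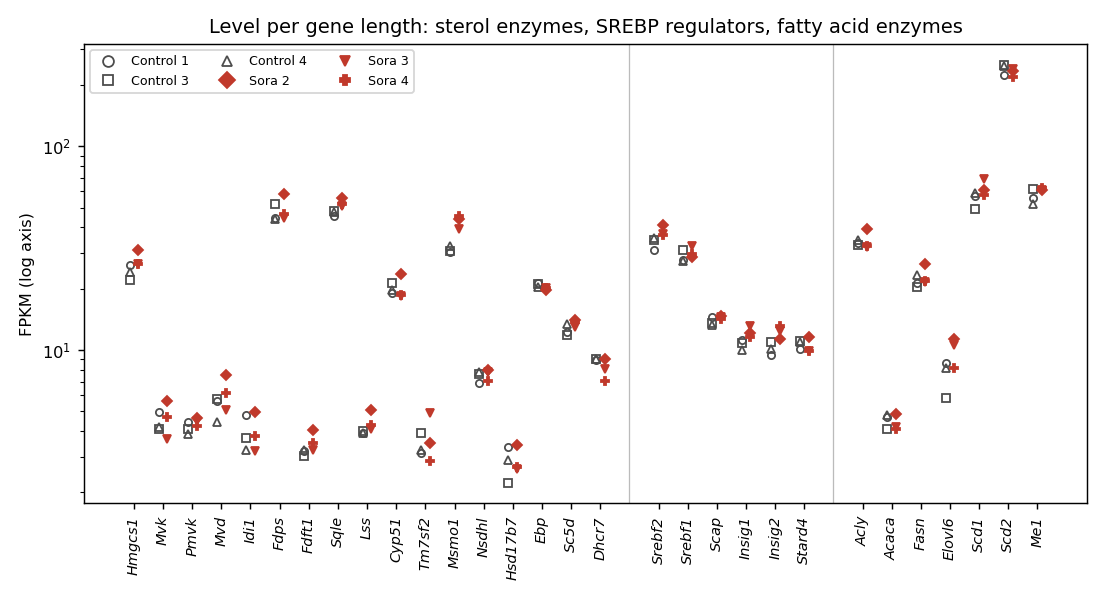
FPKM on a log axis of the 30 genes in each of the 6 tumors, with open gray symbols for control and filled red symbols for Sora-treated tumors. Scd2 stands highest at 218 to 251 FPKM. The groups overlap in most genes, whereas all Sora-treated tumors lie above the control tumors in 7 and below in 1.

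The sterol branch opens with Hmgcs1, which joins acetyl-CoA units to make HMG-CoA. Its levels were 106.9, 95.37, and 101.6 CPM in control tumors 1, 3, and 4 and 129.5, 110.7, and 114.7 CPM in Sora-treated tumors 2, 3, and 4. Although all Sora-treated tumors lay above the control tumors, the difference of 0.22 on the log2 scale (SE 0.08) was not called (adjusted p = 0.183, edgeR). Mvk, Pmvk, and Mvd, which turn mevalonate into isopentenyl pyrophosphate, had log2 fold changes of 0.09, 0.11, and 0.26 (adjusted p 0.844, 0.633, and 0.49, edgeR). Only Pmvk was without overlap among these 3, with 13.13 to 14.7 CPM in control and 14.85 to 15.7 CPM in Sora-treated tumors, although its FPKM overlapped (4.438 in control tumor 1 and 4.24 in Sora-treated tumor 4). Idi1, which isomerizes isopentenyl pyrophosphate, and Fdps, which builds farnesyl pyrophosphate from it, had log2 fold changes of 0.04 and 0.10, with overlap of the groups.

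Fdft1 joins farnesyl units into squalene, Sqle oxidizes squalene at a rate-controlling step, and Lss closes the rings to lanosterol. Sqle had 121.6, 134.8, and 129.2 CPM in the control tumors and 152.7, 139.0, and 147.5 CPM in the Sora-treated tumors. The Sora-treated tumors were again all higher, by 0.19 on the log2 scale (SE 0.07), without a call (adjusted p = 0.213, edgeR). For Fdft1 and Lss the log2 fold changes were 0.20 and 0.20 (0.1969 and 0.1994), and in both genes Sora-treated tumor 3, with 33.21 and 28.06 CPM, lay within the control range in CPM. In FPKM that tumor's Lss lay above it, at 4.099 against at most 3.99. Neither passed the threshold (adjusted p = 0.323 for each, edgeR).

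Of the listed enzymes that turn lanosterol into cholesterol, only Msmo1 passed the threshold in edgeR, and differences among them were not tested. Msmo1, the sterol C4-methyl oxidase that takes methyl groups off the ring, had 68.66, 73.14, and 74.54 CPM in control tumors 1, 3, and 4. In Sora-treated tumors 2, 3, and 4 it had 101.6, 90.25, and 109.0 CPM. The lowest Sora-treated tumor lay above the highest control tumor by more than the SD of either group (72.1 ± 3.07 against 100.3 ± 9.45 CPM, SD, n = 3). The difference between the groups was 0.48 on the log2 scale with an SE of 0.08 (adjusted p = 0.0188, edgeR). With each tumor left out in turn the log2 fold change stayed between 0.41 and 0.54, and edgeR no longer called it when control tumor 1, Sora-treated tumor 2, or Sora-treated tumor 4 was absent (adjusted p = 0.0618, 0.0687, and 0.105). Over all alternatives its adjusted p ran from 5.34e-05 in DESeq2 to 0.178 in edgeR with a replicate block, and it passed in 12 of 18.

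Nsdhl and Hsd17b7 act with Msmo1 in the same demethylation, and both overlapped between the groups, with log2 fold changes of 0.04 (standard error 0.10) and 0.05 (standard error 0.15). Cyp51, which removes the C14 methyl group earlier, had 81.0 to 94.97 CPM in control and 79.17 to 101.8 CPM in Sora-treated tumors, a log2 fold change of 0.02. Tm7sf2, a sterol C14 reductase, had a log2 fold change of 0.14 with a standard error of 0.22. Among the last enzymes, Sc5d (log2 fold change 0.14), Ebp (-0.05), and Dhcr7 (-0.16) overlapped between the groups in CPM too. Dhcr7, which makes cholesterol from 7-dehydrocholesterol, was the member with the lowest fitted change, from 32.62 to 34.73 CPM in control to 27.08 to 33.5 CPM in Sora-treated tumors (adjusted p = 0.423, edgeR). Thus 15 of the 17 enzymes had a log2 fold change above 0, against 49.9% of all genes tested, and 1 of the 17 passed the threshold. Without Sora-treated tumor 2 the fitted change was above 0 for 10 of the 17.

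**Figure D2:**
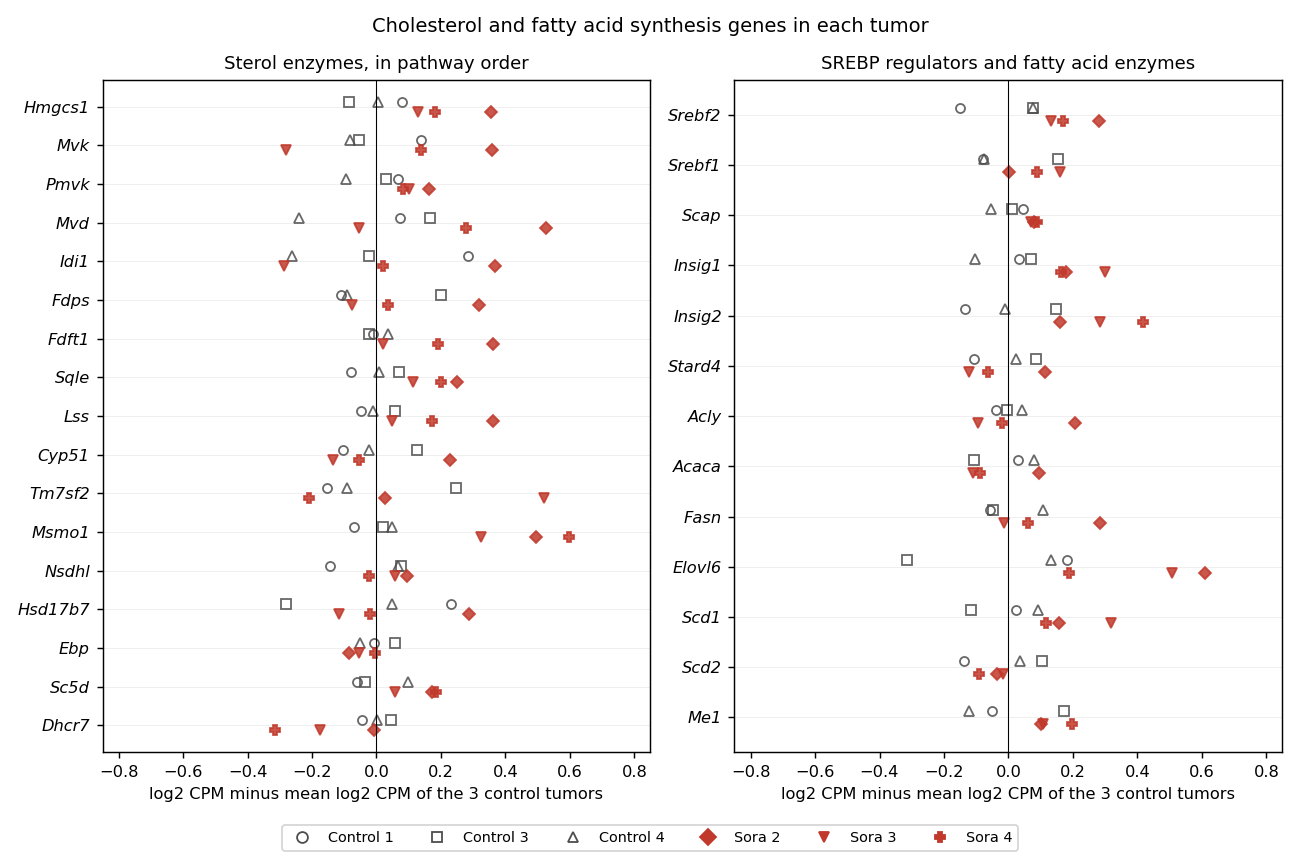
Each symbol is 1 tumor, placed by its log2 CPM minus the mean of the 3 control tumors for that gene (x axis), with open gray symbols for control and filled red symbols for Sora-treated tumors. Msmo1 shows the widest gap between the groups among the sterol enzymes, and Sora-treated tumor 2 (diamonds) is the highest tumor for 12 of the 17 sterol enzymes.

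Sora-treated tumor 2 had the highest level of 12 of the 17 enzymes in CPM, against 15.8% of all genes tested, and of 4 of the 7 fatty acid enzymes. In FPKM it was highest for 13 of the 17, against 18.5%. The mean of log2 CPM over the 17 enzymes, taken relative to the control mean, gave control tumors 1, 3, and 4 values of 0.00236, 0.03, and -0.04. Sora-treated tumors 2, 3, and 4 had 0.25, 0.01, and 0.09. Sora-treated tumor 3 therefore lay within the control range, and the other 2 lay above it. Without Sora-treated tumor 2 the median log2 fold change of the 17 enzymes was 0.09 (0.11 with all tumors), and it ran from 0.07 without control tumor 4 to 0.18 without Sora-treated tumor 3.

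The promoter of Msmo1 is shown because it is the gene that passed the threshold. SREBP binds a sterol regulatory element, often beside a CCAAT box, which is bound by the factor NF-Y. Promoters were those of RefSeq on GRCm38.p6, from 250 bases before to 50 bases after a gene's start, and 24 of the 30 genes matched. Stard4, Scd1, Sqle, Scd2, Fdps, and Fdft1 had no entry. The 250 bases before the start of Msmo1, at chr8:64733579-64733828 on the minus strand, are printed 5′ to 3′, with matches to TCACNCCA (where N is any base) and to CCAAT in capitals.
Msmo1: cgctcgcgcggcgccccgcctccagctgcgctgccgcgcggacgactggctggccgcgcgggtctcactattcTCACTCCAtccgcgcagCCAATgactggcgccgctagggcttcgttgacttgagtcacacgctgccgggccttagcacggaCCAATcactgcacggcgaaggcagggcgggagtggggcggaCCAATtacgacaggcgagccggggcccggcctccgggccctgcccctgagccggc
The element match begins 177 bases before the start, and the 3 CCAAT matches begin 160, 96, and 55 bases before it.

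TCACNCCA was searched on both strands and was found in 3 of the 24 genes with a promoter, against 4.73% of the 12734 tested genes with a promoter. The 3 windows of 30 bases are given with the match in capitals, on the strand of the gene, and were chosen for the match and not for their values. Those of Hmgcs1 and Srebf2 begin their match 137 and 162 bases before the start.
Hmgcs1: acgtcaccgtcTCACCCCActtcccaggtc
Msmo1: tctcactattcTCACTCCAtccgcgcagcc
Srebf2: atgacgcaccaTCACCCCAtgagccgcttc
CCAAT, searched on both strands, was found in 21 of the 24 genes, against 42.1% of all tested genes with a promoter, and among them were all 14 sterol enzymes that had an entry. It was in 4 of 5 regulators and 3 of 5 fatty acid enzymes. CACGTG, the E-box to which SREBP also binds, reads the same on both strands and was in 5 of the 24 genes, against 10.8%. The last letters of TCACNCCA can overlap a CCAAT. These are matches of letters, and binding was not measured.

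Among the regulators, Srebf2 had 167.7, 196.3, and 196.1 CPM in control tumors 1, 3, and 4 and 226.1, 204.2, and 209.5 CPM in Sora-treated tumors 2, 3, and 4. The groups did not overlap, and the difference of 0.19 on the log2 scale (SE 0.08) was not called (adjusted p = 0.269, edgeR). Srebf1 had 132.8, 155.9, and 133.0 CPM in control and 140.2, 156.7, and 148.9 CPM in Sora-treated tumors. These overlapped, and the log2 fold change was 0.08 with an SE of 0.08 (adjusted p = 0.696, edgeR). Reads per gene do not separate the SREBP1a and SREBP1c transcripts of Srebf1.

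Insig1 and Insig2, which retain the Scap and SREBP complex and are themselves part of the feedback, were higher in every Sora-treated tumor than in any control tumor. Insig1 had 28.75, 29.45, and 26.15 CPM in control and 31.78, 34.55, and 31.46 CPM in Sora-treated tumors (log2 fold change 0.21, adjusted p = 0.222, edgeR). Insig2 had 64.61, 78.57, and 70.4 CPM in control and 79.25, 86.4, and 94.85 CPM in Sora-treated tumors (log2 fold change 0.29, adjusted p = 0.133, edgeR), so its lowest Sora-treated tumor was just above its highest control tumor. Scap, the escort and sterol sensor, had 62.26 to 66.63 CPM in control and 67.85 to 68.68 CPM in Sora-treated tumors (log2 fold change 0.08, SE 0.07), and its FPKM overlapped. Stard4, a carrier of cholesterol between membranes, overlapped (log2 fold change -0.02, SE 0.09). None of the 6 regulators was called by edgeR or by DESeq2. At an unadjusted p under 0.05 in edgeR, 3 were higher and 0 lower, against 8.53% and 8.69% of all genes tested. Their mean relative to control lay close together in the Sora-treated tumors, at 0.135, 0.137, and 0.144, and was -0.07, 0.09, and -0.02 among the controls.

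The fatty acid branch begins with Acly, which makes cytosolic acetyl-CoA from citrate, followed by Acaca, which makes malonyl-CoA, and Fasn, which makes palmitate. Acly had 257.3, 263.5, and 271.7 CPM in control tumors 1, 3, and 4 and 304.9, 247.6, and 260.5 CPM in Sora-treated tumors 2, 3, and 4. Fasn had 215.9, 217.1, and 241.7 CPM in control and 273.5, 222.5, and 234.3 CPM in Sora-treated tumors. In both genes Sora-treated tumor 2 was the highest and the other Sora-treated tumors lay among or below the control tumors, and the log2 fold changes were 0.04 and 0.11 (adjusted p 0.875 and 0.587, edgeR). Acaca had a log2 fold change of -0.03 (standard error 0.09) and overlapped.

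Downstream of palmitate, Elovl6, which lengthens it to stearate, had 49.94, 35.34, and 48.25 CPM in control and 67.1, 62.55, and 50.14 CPM in Sora-treated tumors. The groups did not overlap in CPM, with Sora-treated tumor 4 only just above control tumor 1, and they overlapped in FPKM (8.18 and 8.614 in these tumors). Its log2 fold change of 0.43 (standard error 0.14) was close to that of Msmo1 but did not pass the threshold in edgeR (adjusted p = 0.126), and it did in DESeq2 (0.0274). Scd1 had 268.8, 244.2, and 281.8 CPM in control and 294.6, 329.4, and 287.0 CPM in Sora-treated tumors, without overlap in CPM and without a call (log2 fold change 0.20, SE 0.08, adjusted p = 0.258, edgeR). In FPKM its groups overlapped, at 57.6 in Sora-treated tumor 4 and 58.7 in control tumor 4. Scd2 had 1185, 1402, and 1336 CPM in control and 1274, 1288, and 1224 CPM in Sora-treated tumors, a log2 fold change of -0.05 (standard error 0.09). The Scd2 to Scd1 ratio in FPKM was 3.91, 5.09, and 4.20 in control and 3.84, 3.47, and 3.78 in Sora-treated tumors, so every Sora-treated tumor had a lower ratio than every control tumor. Me1 overlapped (log2 fold change 0.13, SE 0.09). No fatty acid enzyme was called by edgeR. At an unadjusted p under 0.05, 2 of the 7 were higher and 0 lower, against 8.53% and 8.69% of all genes tested. The median log2 fold change was 0.11, and 5 of 7 were above 0, against 49.9% of all genes tested. Without Sora-treated tumor 2 the median was 0.02, and without control tumor 4 it was 0.07.

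**Figure D3:**
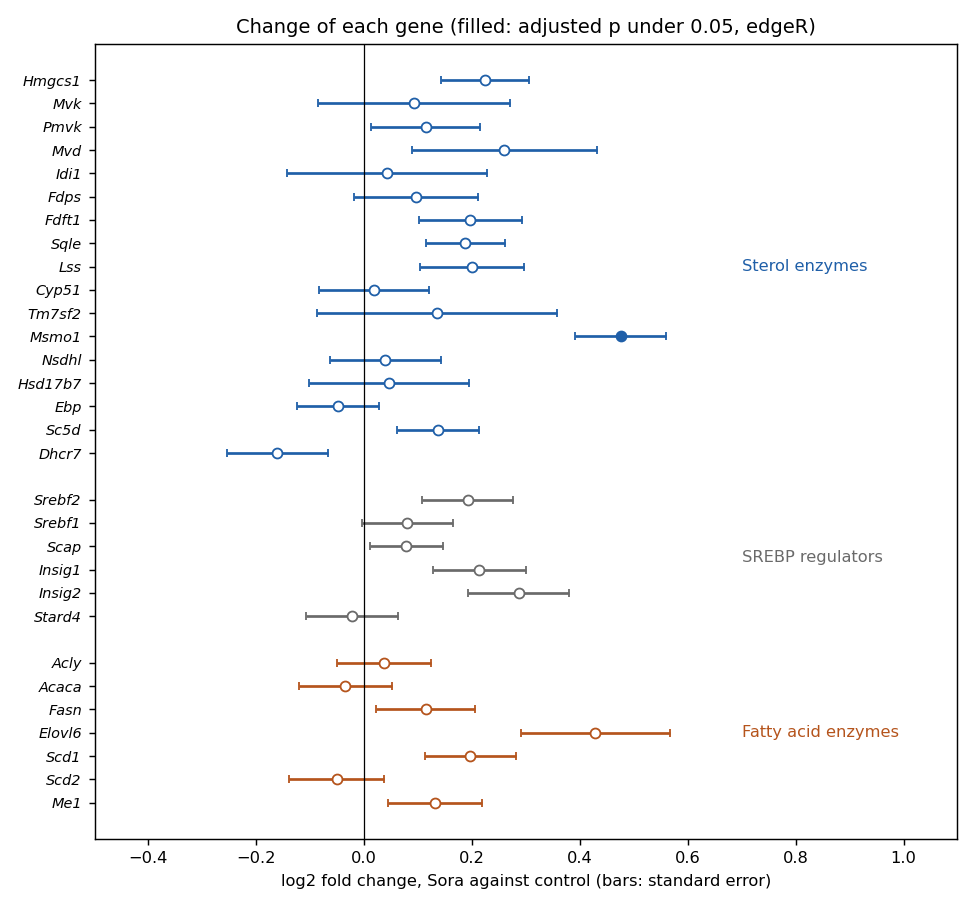
Log2 fold change of each gene in Sora-treated against control tumors (x axis) with its standard error as a bar, from edgeR, in blue for sterol enzymes, gray for SREBP regulators, and orange for fatty acid enzymes. Msmo1, at 0.48, is the only filled point (adjusted p under 0.05), and Elovl6, at 0.43, is the next largest.

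Set side by side, the sterol and fatty acid branches had median log2 fold changes of 0.1137 and 0.1140 with all tumors and of 0.09 and 0.02 without Sora-treated tumor 2, and a difference between them was not tested. The highest fitted value was that of Msmo1 in the former and of Elovl6 in the latter, and of these only Msmo1 passed the threshold in edgeR.

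Other genes of these pathways were taken from 3 lists. The first held 14 sterol genes outside the 30, and none was called by edgeR. At an unadjusted p under 0.05 in edgeR, 5 were higher and 0 lower, against 8.53% and 8.69% of all genes tested. DESeq2 called 2 of the 14 up (4% of all genes were) and 1 with Sora-treated tumor 4 left out (1.65%). In 4 of the 14 genes all Sora-treated tumors lay above the control tumors and in 1 below, against 10.6% and 11.6% of all genes tested. A log2 fold change above 0 was found for 9 of the 14, against 49.9%. The median over the 14 genes was 0.04.

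The second list held 23 genes of fatty acid and lipid synthesis, of which edgeR called 1 (3.29% of all genes tested were), Elovl3, an elongase of very long chains. At an unadjusted p under 0.05, 5 of the 23 were higher and 2 lower, against 8.53% and 8.69% of all genes tested. DESeq2 called 3, against 7.71% of all genes, with Elovl3 and Acsl3, an acyl-CoA synthetase, higher and Gpam, which begins glycerolipid synthesis, lower. With Sora-treated tumor 4 left out DESeq2 called only Elovl3 of the 23, and the adjusted p was 0.24 for Acsl3 and 0.268 for Gpam. Gpam had 78.16, 81.25, and 103.6 CPM in control and 66.98, 74.61, and 57.6 CPM in Sora-treated tumors, without overlap (log2 fold change -0.40, adjusted p = 0.104 in edgeR and 0.019 in DESeq2), and it and Acsl3 are named after their values were seen. Elovl3 had 1.90, 1.17, and 1.45 CPM in control and 6.07, 6.31, and 4.11 CPM in Sora-treated tumors. The groups were well apart, with a 3.65-fold difference (log2 fold change 1.87, SE 0.27, adjusted p = 0.0112, edgeR, or 0.0543 with Sora-treated tumor 4 left out). Elovl3 is also a marker of sebaceous gland cells and is itself 1 of the 6 sebocyte markers tested. Of these 6, edgeR called 3 up, Elovl3 itself, Awat1, and Dgat2l6, against 1.94% of all genes tested, and 3 were not called. The summed level of the 7 listed sebocyte markers was 22.1 to 54.0 CPM in control and 45.1 to 78.3 CPM in Sora-treated tumors. Most of it was Krt79, which overlapped between the groups (log2 fold change 0.76, adjusted p = 0.185, edgeR), and Mc5r was at no more than 0.362 CPM. The summed level of the 9 keratinocyte markers, also of skin, was 1215, 391.1, and 469.0 CPM in control tumors 1, 3, and 4 and 1088, 805.6, and 774.3 CPM in Sora-treated tumors 2, 3, and 4, so control tumor 1 was the highest of all. All 9 had a log2 fold change above 0, and 0 were called by edgeR or DESeq2 or had an unadjusted p under 0.05 in edgeR. The part of these cells in the result was not tested.

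The third list held 16 genes of sterol export, storage, and sensing, of which 14 were tested and 1 was called by edgeR (3.29% of all genes tested were), Abcg1, an exporter of cholesterol and a target of the sterol sensors LXR. Abcg1 had 70.31, 67.55, and 56.2 CPM in control and 44.95, 52.45, and 42.5 CPM in Sora-treated tumors. All Sora-treated tumors lay below the control tumors (log2 fold change -0.47, SE 0.11, adjusted p = 0.0392, edgeR, or 0.188 with Sora-treated tumor 4 left out). It lost its call with control tumor 1, control tumor 3, or Sora-treated tumor 2 left out as well (adjusted p 0.127, 0.0941, and 0.137, edgeR). In all, 10 of the 14 genes had a log2 fold change below 0 and 4 above 0, against 49.9% of all genes tested above 0, and the median was -0.16. At an unadjusted p under 0.05 in edgeR, 5 were lower and 1 higher, against 8.69% and 8.53% of all genes tested. DESeq2 called 4 of the 14, against 7.71% of all genes, with Abcg1, Nr1h3 (LXR alpha), and Lipa (lysosomal acid lipase) lower and Npc1 (lysosomal cholesterol export) higher, of which Nr1h3, Lipa, and Npc1 are named after their values were seen. With Sora-treated tumor 4 left out DESeq2 called 0 of the 14 (4 at an unadjusted p under 0.05), and the adjusted p was 0.0557 for Abcg1, 0.307 for Nr1h3, 0.0552 for Lipa, and 0.109 for Npc1. Macrophages express Abcg1 and Nr1h3 too. All 8 macrophage markers had a log2 fold change below 0 (median log2 fold change -0.28, 0 called by edgeR, 6 at an unadjusted p under 0.05, and 4 called by DESeq2), with a summed level of 1756 to 2114 CPM in control and 1474 to 1727 CPM in Sora-treated tumors. Their part in the result was not tested.

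**Figure D4:**
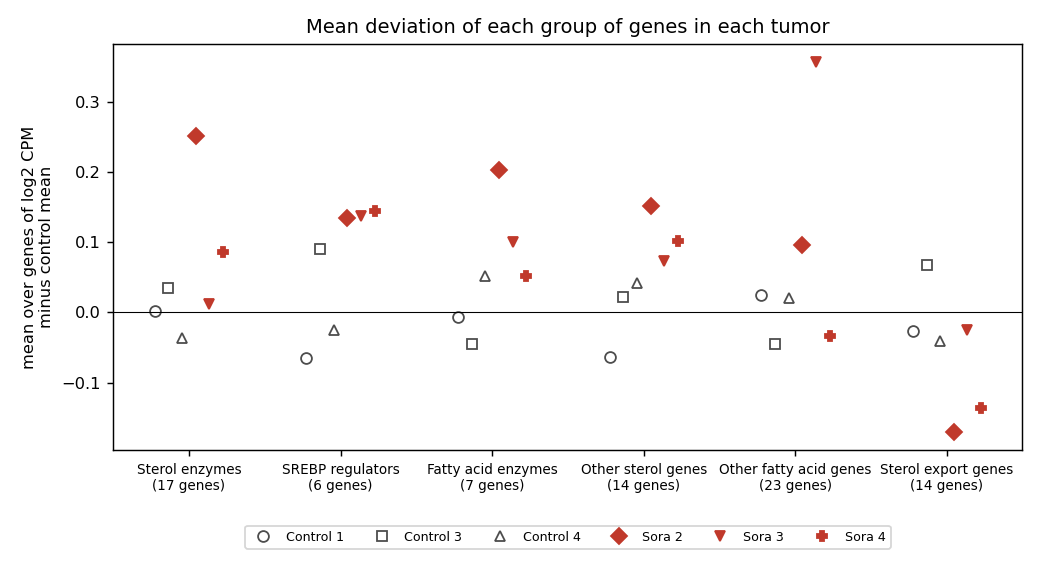
Mean over the genes of each list of log2 CPM minus the mean of the 3 control tumors (y axis), with 1 symbol per tumor. Sora-treated tumor 2 stands highest for sterol enzymes at 0.25, whereas the 3 Sora-treated tumors lie together for the regulators, and Sora-treated tumors 2 and 4 lie lowest for sterol export genes, at -0.17 and -0.14.

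Depth was 31073830 to 36205814 counted reads in each tumor, and the labels name no batch. The hepatoma markers Afp (655.4 to 1000 CPM in control tumors) and Alb were present, and of 9 such markers edgeR called Apoa1 and Hnf4a up and Alb and Ttr down, with a summed level of 4802 to 6263 CPM in control and 4814 to 5349 CPM in Sora-treated tumors. Adipocytes also make fatty acids. Of the 9 adipocyte markers tested, edgeR called 0 (4 higher at an unadjusted p under 0.05, 2 called by DESeq2), Lep was at no more than 0.352 CPM, and the summed level was 75.6 to 108.6 CPM in control and 92.1 to 140.6 CPM in Sora-treated tumors. EdgeR called Cd8b1 down among 7 T cell markers (6 lower at an unadjusted p under 0.05, 2 called down by DESeq2), whose summed level was 218.8 to 239.0 CPM in control and 172.9 to 183.5 CPM under Sora. Of 6 neutrophil markers, 4 were higher at an unadjusted p under 0.05, with a median log2 fold change of 0.57 over the 6, and 4 were highest in Sora-treated tumor 2. EdgeR called S100a9 up (adjusted p = 0.0424, and 0.0532 in DESeq2), and DESeq2 called Csf3r up (adjusted p = 0.00693). Their summed level was 284.3 to 356.6 CPM in control and 302.4 to 354.2 CPM under Sora, most of it Mmp9 (log2 fold change -0.23). EdgeR called 0 of 8 skeletal muscle, 7 endothelial, and 7 fibroblast markers (0, 1, and 3 at an unadjusted p under 0.05, and 0, 0, and 3 by DESeq2). All 8 muscle markers had a log2 fold change above 0, with a summed level of 190.8 to 267.8 CPM in control and 217.8 to 310.5 CPM under Sora. The summed level was 224.3 to 262.6 and 177.6 to 244.7 CPM for endothelial markers and 7672 to 7946 and 5433 to 6831 CPM for fibroblast markers, in control and under Sora. Over all genes tested, 8.53% were higher and 8.69% lower at an unadjusted p under 0.05 in edgeR. The part of these cells in the changes of the 30 genes was not tested.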

How the data were processed

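RNA of 3 control and 3 Sora-treated tumors was sequenced, with 1 library per tumor. The authors deposited counts, whole numbers of reads per gene without normalization, and FPKM, the counts divided by gene length and total count. The paper names Bowtie2, GRCm38, and expectation maximization, whereas the submitters' processing notes name fastp, HISAT2, HTSeq, R 3.2.0, and GRCm39, and both name DESeq2. The use of strand and the annotation are not given in the sources used here. The count table used here holds 5 tumors, so those of Sora-treated tumor 4 were worked out from FPKM, with gene lengths implied by the other columns. Of the results, 100% lay less than 0.001 from a whole number, and 342 genes with 512 reads were left at 0. The same steps returned every count of the 5 known tumors that they could reach.

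Genes that reached 10 counts in 3 or more tumors were tested with edgeR 4.0.16 (TMM, glmQLFit with robust=FALSE, glmQLFTest) in R 4.3.3, with Benjamini-Hochberg adjustment over all 16513 genes and a threshold of 0.05. Groups came from the titles of the samples. The labels do not say that tumors came from separate experiments, so p-values measure the spread between these tumors. The standard error (SE) is the log2 fold change divided by the square root of F. The biological coefficient of variation was 0.132. Alternatives were DESeq2 1.42.0, voom and log2(FPKM + 1) or log2(FPKM + 0.1) with limma 3.58.1, other scalings and filters, each tumor left out, and a replicate block. DESeq2 without Sora-treated tumor 4, and overlap of the groups in FPKM, were added after the data were seen. The members and lists were chosen with earlier results of these data known. The text names all 30 members and each called gene of the 3 other lists, and some genes that the rule names are not reported here. Marker lists were hepatoma, adipocyte, sebocyte, keratinocyte, skeletal muscle, macrophage, T cell, neutrophil, endothelial, and fibroblast. The scripts were tested on simulated data.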

Additional observations from a re-analysis of the deposited data

How the results depend on the processing

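Over all genes, 321 rose and 222 fell. The counts were 619 and 575 in DESeq2, 570 and 577 with no filter, 136 and 62 with log2(FPKM + 1) and 21 and 17 with log2(FPKM + 0.1) of filtered genes, 0 and 0 with log2(FPKM + 1) of all genes (1604 and 1649 at an unadjusted p under 0.05), and 4 to 574 and 1 to 571 with a tumor left out. The call of Msmo1, the 1 sterol enzyme called, was lost (0 called) with log2(FPKM + 0.1), with log2(FPKM + 1) of all genes, and in 3 of 6 fits with a tumor left out (0 to 1). Elovl6 was the 1 fatty acid enzyme called in DESeq2, with no filter, and in DESeq2 without Sora-treated tumor 4. Other sterol genes called were 2 in DESeq2 and with no filter, 1 in DESeq2 without Sora-treated tumor 4, and 0 to 1 with a tumor left out. Other fatty acid genes called were 3 in DESeq2 and with no filter, 0 with log2(FPKM + 1) of all genes, and 0 to 2 with a tumor left out. Sterol export genes called were 4 in DESeq2 and with no filter, 0 in each FPKM fit and in DESeq2 without Sora-treated tumor 4, and 0 to 4 with a tumor left out. With FPKM in place of CPM, an alternative chosen after seeing the data, 7 and not 10 of the 30 genes had all Sora-treated tumors above the control tumors, and 1 and not 0 had all below. The median log2 fold change was 0.071 to 0.18 for sterol enzymes, 0.11 to 0.20 (0.1073 to 0.1957) for regulators and 0.023 to 0.13 for fatty acid enzymes with a tumor left out.

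With a tumor left out, the sign turned for Mvk (-0.058 to 0.25), Idi1 (-0.14 to 0.20), Fdps (-0.025 to 0.20), Cyp51 (-0.10 to 0.088), Tm7sf2 (-0.10 to 0.29), Nsdhl (-0.028 to 0.077), Hsd17b7 (-0.081 to 0.17), Stard4 (-0.093 to 0.024), Acly (-0.055 to 0.096), Acaca (-0.10 to 0.0049), and Scd2 (-0.12 to 0.0028), none of which was called. The cause was not tested. Of the scalings, total counts moved the median of all genes the furthest (-0.0112).

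The labels give numbers 3 and 4 in both groups. Correlations of deviations from the group means were -0.0326 and -0.0736 for the same-numbered tumors. So few pairs cannot decide whether the numbers pair the tumors. With the replicate block, which leaves 1 residual degree of freedom, 80 genes rose and 45 fell, 0 sterol enzymes and 0 sterol export genes were called, the fatty acid median was -0.0049, and the log2 fold changes of Fdps (-0.075), Cyp51 (-0.15), Nsdhl (-0.055), Acly (-0.075), and Fasn (-0.0049) were below 0. The 30 genes had at least 144 reads in each tumor.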
